A study of Mus musculus with 6 samples.

Results

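The genes described here are 34 genes of glutathione metabolism and of the NRF2 antioxidant response, chosen by symbol and read from the deposited counts by Ensembl gene ID among 37991 IDs. They comprise 22 glutathione transferases, 4 genes of glutathione synthesis and reduction, 2 glutathione peroxidases, 4 other NRF2 targets, and the pair Nfe2l2 (NRF2) and Keap1. All 34 had a row in the files, and 32 passed the filter on low counts. Gsta1 and Mgst2 did not. The livers came from FVB mice aged 84 days: 3 were Ing5 +/+ (WT) and 3 were Ing5 MommeD48/+ (Het). The Ing5 gene encodes a subunit of histone acetyltransferase complexes, and the comparison asked what heterozygosity for the mutant allele does to liver transcripts. Poly(A) RNA was sequenced, and the total count per library was 19840541 to 22041117. Replicates carry a number but the labels trace none of them to an animal of its own. The p-values therefore reflect no more than the spread of these 6 libraries, part of which may be technical.

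Glutathione is the main small thiol of hepatocytes. Glutathione transferases (GSTs) join it to electrophiles, drugs and lipid peroxidation products, glutathione peroxidases use it to reduce peroxides, and the ligase subunits Gclc and Gclm set the rate of its synthesis. The transcription factor NRF2 is held by KEAP1 for degradation in unstressed cells. When electrophiles modify KEAP1, NRF2 accumulates and binds antioxidant response elements beside many of these genes.

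Levels are given as CPM, counts scaled to a common library size with the TMM correction, always in the order of replicates 1, 2 and 3. A mean ± SD covers the 3 livers of a genotype (n = 3). Each log2 fold change compares Het with WT and comes from the edgeR quasi-likelihood fit over all 12631 genes tested, with Benjamini-Hochberg adjustment over all of them and a threshold of 0.05. The tissue label held: the 10 hepatocyte markers summed to 95245 to 108577 CPM in WT mice and 98134 to 116909 in Het mice, with none at 0. Ing5 itself had 8.76, 10.3 and 9.82 CPM in WT mice and 9.23, 9.98 and 8.78 in Het mice, so its RNA level did not separate the genotypes. In bulk tissue, fewer cells of a type and less RNA per cell cannot be told apart.

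None of the 32 tested members differed between genotypes past the threshold, and the background was the same, with 0 of 12631 genes called (0%). At an unadjusted edgeR p under 0.05, 0 members stood against 4.33% of all genes. DESeq2 gave such a p to 1 member, Gstm2, against 3.23% of all genes, and after adjustment called 0 members against 0.103% of all genes (13 genes). Limma-voom called 0 genes. The 3 Het and 3 WT values overlapped for every tested member, whereas they did not overlap for 8.99% of all genes. Values were higher in Het livers for 13 members (50.3% of all genes) and lower for 19. Their median log2 fold change was -0.045, against 0.00088 over all genes. The 95% interval lay within a 2-fold change for 28 of 32 members (90.0% of all genes) and within a 1.5-fold change for 20 of 32 (71.1% of all genes). The 4 members with wider intervals, Gsta2, Gstm2, Gstm3 and Gstt3, are all transferases.

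**Figure D1:**
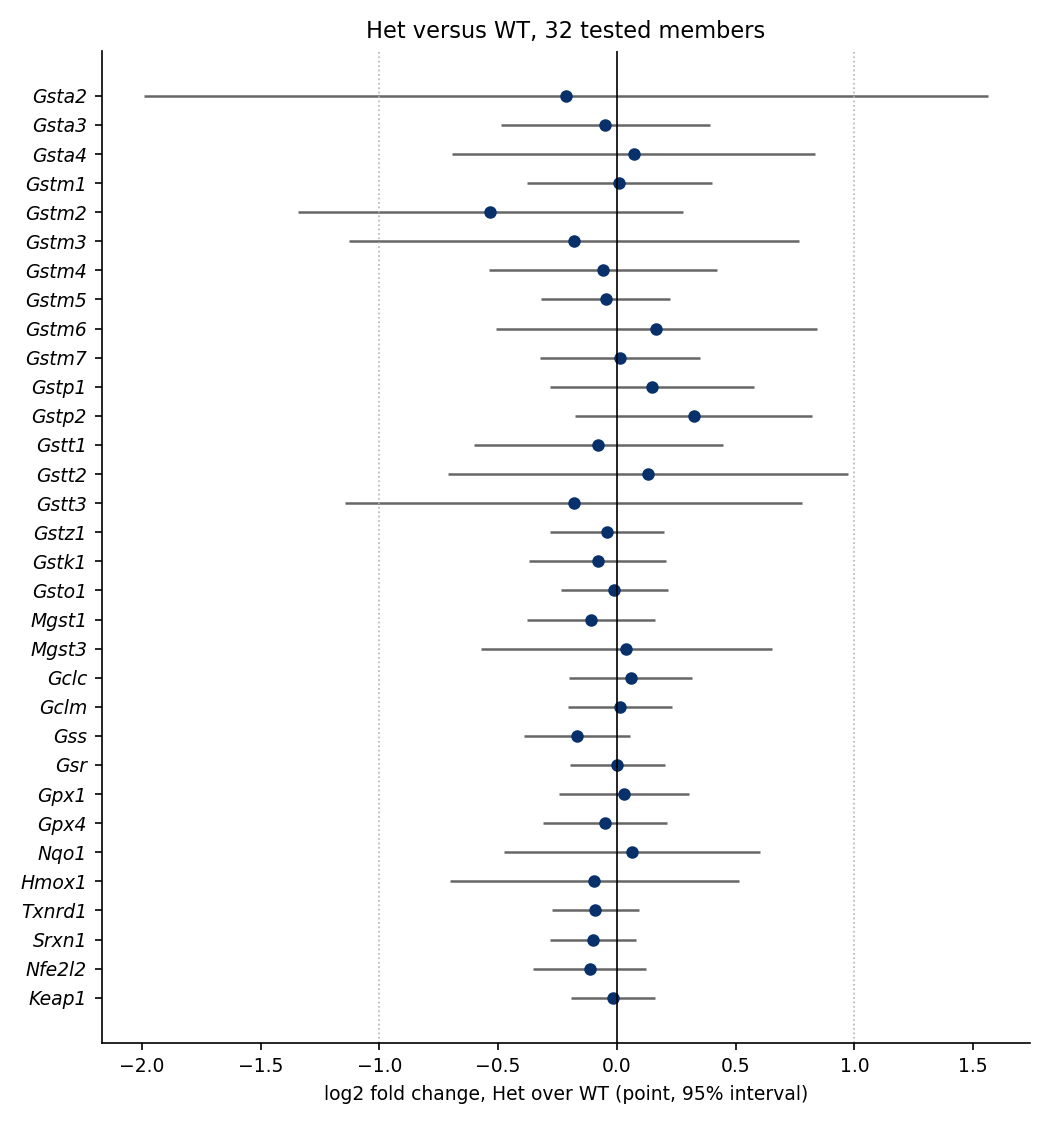
Log2 fold change of Het over WT (horizontal axis) for the 32 tested members, points with 95% intervals from the edgeR fit; dotted lines mark a 2-fold change. Every interval includes 0, and those of Gsta2, Gstm2, Gstm3 and Gstt3 cross a dotted line.

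The number of members with higher values in Het livers moved most when WT replicate 2 or 3 was left out. With a Het liver left out, it was 9 to 14 of 32 (49.6% to 50.7% of all genes), and signs of single members turned there too. Without WT replicate 3, 22 of 32 members had higher values in Het livers (50.8% of all genes). Without WT replicate 2, 4 of 32 did (51.0% of all genes). With 3 against 2 livers and WT replicate 3 left out, 5 members had an unadjusted p under 0.05, against 10.8% of all genes. These were Gsta2, Gstm6, Gstt1, Gstt3 and Mgst3, all higher in Het livers in that fit, and 0 passed after adjustment. WT replicate 3 was the highest liver for all 5, so leaving it out raises their log2 fold changes. Other omissions gave such a p to members lower in Het livers. These were Gstm2 without WT replicate 2, Gss without Het replicate 1 and Hmox1 without Het replicate 2. The share over all genes was not counted for those fits.

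The order of the livers was alike for many transferases. Among the 20 tested transferases, WT replicate 2 was the lowest liver for 15 and WT replicate 3 the highest for 13. Het replicate 1 was the highest for 4 and Het replicate 2 the lowest for 3. Over all genes tested, WT replicate 2 was the lowest for 17.6% and WT replicate 3 the highest for 21.7%. Among the 12 other tested members, WT replicate 2 was the lowest for 3 and WT replicate 3 the highest for 5. The mean deviation of the transferases from the average of the 6 livers (log2 CPM) was -0.0058, -0.36 and 0.36 in WT mice and 0.074, -0.10 and 0.032 in Het mice. That of the other 12 members was 0.018, -0.040 and 0.085 in WT mice and 0.047, -0.012 and -0.10 in Het mice. These counts were noticed in the same data and were not tested. Many transferases are neighbours in gene clusters and share sequence, so they are not independent of each other.

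**Figure D2:**
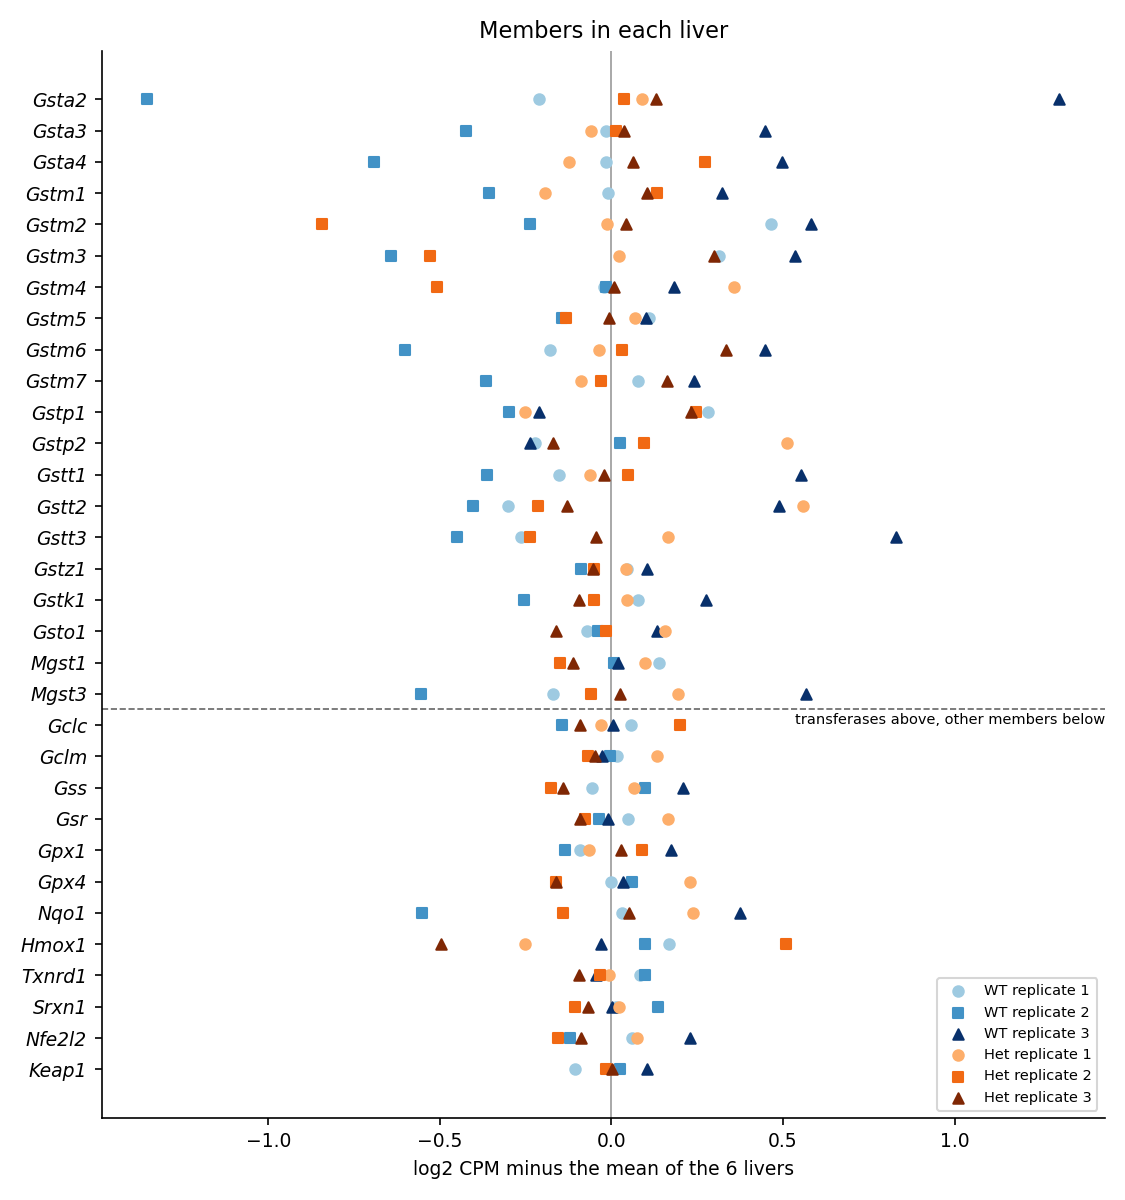
Log2 CPM of each tested member minus its mean over the 6 livers (horizontal axis), 1 point per liver, with transferases above the dashed line and other members below it. WT replicate 2 (blue squares) lies lowest for 15 of 20 transferases and WT replicate 3 (dark blue triangles) highest for 13, while most other members lie close to 0 in every liver.

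To place this spread against other genes, tested genes were sorted into 10 classes of equal size by mean log2 CPM, and the SD of log2 CPM within a genotype was ranked inside each class. Of the 20 transferases, 13 lay above percentile 90, and their median percentile was 92.4. Leaving out 1 liver at a time gave 9 to 13 transferases above percentile 90 (9 without WT replicate 3). Of the 12 other members, 1 lay above percentile 90, and the median percentile was 50.9. Wide spread was not confined to transferases. In the lists described below, 24 of 26 acute-phase genes, 6 of 18 cysteine and methionine genes and 6 of 24 other NRF2 targets lay above percentile 90. So did 2 of 15 NRF2 partners, 1 of 24 other glutathione genes and 1 of 18 genes of the thioredoxin and catalase list. The WT livers spread more than the Het livers for 15 of 20 transferases and for 55.9% of all genes.

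**Figure D3:**
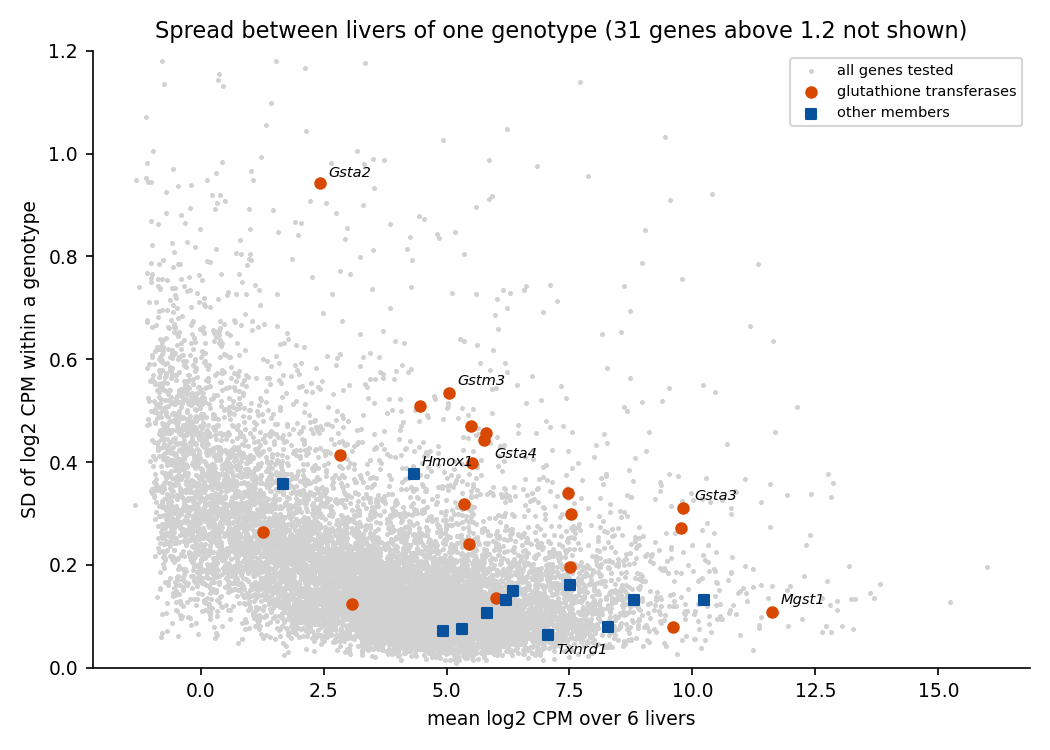
SD of log2 CPM within a genotype (vertical axis, pooled over both genotypes) against mean log2 CPM over the 6 livers (horizontal axis), for all genes tested (grey), transferases (orange circles) and other members (blue squares). Most transferases sit in the upper part of the grey cloud at their abundance, and most other members sit in its middle or lower part.

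Acute-phase transcripts, which the liver induces in inflammation, also differed between these livers. Their mean deviation (26 genes, log2 CPM) was 0.75, 1.56 and -0.91 in WT mice and 0.50, -0.72 and -1.18 in Het mice. In Het livers 25 of 26 had lower values (median log2 fold change -0.56), with 0 past the threshold. Over all genes, 50.3% had higher values in Het livers, and the median was 0.00088. The genotypes failed to overlap for 0 of 26, against 8.99% of all genes, and Het replicate 1 had a higher score than WT replicate 3. Fgb, a fibrinogen chain, had 4562, 5836 and 3044 CPM in WT mice and 3480.0, 3581 and 3542 in Het mice, and Hpx, the heme carrier hemopexin, 4098, 6643 and 2206 CPM in WT mice and 3594, 2326 and 2085 in Het mice. Saa4, a serum amyloid A protein with the smallest p of the list, had 834, 1034 and 438 CPM in WT mice and 404, 448 and 439.7 in Het mice (log2 fold change -0.84, SE 0.29). WT replicates 1 and 2 were the highest livers for all 3 of these genes. WT replicate 2, the lowest liver for most transferases, had the highest acute-phase score. WT replicate 3 had a score of -0.91 and a mean transferase deviation of 0.36, and Het replicate 3 had -1.18 and 0.032. Fitting the acute-phase score as a covariate left 0 members called. In that fit 7 of 32 had higher values in Het livers, against 51.7% of all genes. Score and genotype overlap there, since 25 of 26 acute-phase genes had lower values in Het livers. Whether the acute-phase state had a part in the transferase values was not tested.

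Sequence near the start sites is shown because NRF2 can act there. The core antioxidant response element TGACNNNGC was searched on both strands in RefSeq promoter windows (GRCm38.p6; 250 bases before to 50 after a start). Windows were matched for 29 of 34 members by symbol, and Gsta4, Gstt2, Gclc, Gsr and Hmox1 were not matched. A match stood in 8 of the 29 members (27.6%) and in 14.0% of all 27025 genes with a window. By window, it stood in 19.0% of member windows and 12.4% of all windows, since some genes have several. The 8 genes were Gsta3, Gstm5, Gstm7, Mgst1, Gclm, Txnrd1, Srxn1 and Nfe2l2; the match of Srxn1 lies after the start. A match is a run of letters, not a measured binding site. Sequence outside these windows was not searched, so a gene without a match may still have an element further away. Stretches of 60 bases from the 4 abundant genes and from Nfe2l2 are given 5′ to 3′ on the gene's strand, with the match in capitals. In Mgst1, Gclm and Txnrd1 the match is on the opposite strand, so its reverse complement is seen.
Gsta3, chr1:21240439-21240498, plus strand: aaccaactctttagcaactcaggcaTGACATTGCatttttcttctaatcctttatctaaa
Mgst1, chr6:138140446-138140505, plus strand: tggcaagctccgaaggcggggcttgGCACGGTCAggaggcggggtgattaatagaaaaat
Gclm, chr3:122245398-122245457, plus strand: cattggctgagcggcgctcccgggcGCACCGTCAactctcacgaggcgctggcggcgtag
Txnrd1, chr10:82859089-82859148, plus strand: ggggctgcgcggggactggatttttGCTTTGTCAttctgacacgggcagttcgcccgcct
Nfe2l2, chr2:75704854-75704913, minus strand: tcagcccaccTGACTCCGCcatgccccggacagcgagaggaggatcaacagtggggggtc
Of these 5 genes, Gsta3 was the one with a wide spread between livers (percentile 90.9). Mgst1 stood at percentile 38.3, Gclm at 20.6, Txnrd1 at 12.6 and Nfe2l2 at 74.1. Of the genes with a match but no printed stretch, Gstm7 also spread widely (91.6), while Gstm5 stood at 27.0 and Srxn1 at 19.0.

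The alpha class, cytosolic transferases that also reduce lipid hydroperoxides, was carried by Gsta3. It had 894, 672 and 1230.4 CPM in WT mice and 866, 911 and 927 in Het mice. The WT livers ran 1.83-fold from lowest to highest and enclosed all 3 Het livers (log2 fold change -0.048, SE 0.19). Gsta4, which conjugates the lipid peroxidation product 4-hydroxynonenal, followed the same order of WT livers. It had 53.3, 33.3 and 76.0 CPM in WT mice and 49.4, 65.1 and 56.2 in Het mice (0.072, SE 0.31). Gsta2 had 4.52, 2.0 and 13.1 CPM in WT mice and 5.59, 5.38 and 5.76 in Het mice. Its range of 6.56-fold was the widest of the tested members, at percentile 99.5, while its 3 Het livers lay close together. The log2 fold change of Gsta2 was -0.22, SE 0.69 and turned to 0.78 without WT replicate 3. Gsta1 was scarce, with 8, 4 and 21 counts in WT and 9, 5 and 10 counts in Het livers, and was not tested. Of the windows of 50 bases along the Gsta1 transcript, 89.7% also occur in transcripts of other genes, and 64.2% for Gsta2, so the split between these copies is uncertain. With Gsta1 and Gsta2 summed, the log2 fold change was -0.24 (SE 0.69).

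The mu class, cytosolic transferases encoded side by side in 1 gene cluster, was led by Gstm1. It had 870.0, 684 and 1095 CPM in WT mice and 765, 961 and 940.2 in Het mice (log2 fold change 0.0094, SE 0.17). The WT livers again enclosed the Het livers. Gstm2 had the lowest log2 fold change of all tested members. It had 61.9, 38.0 and 67.1 CPM in WT mice and 44.4, 24.9 and 46.1 in Het mice, and the genotypes overlapped because WT replicate 2 was lower than 2 Het livers. Its log2 fold change was -0.53, SE 0.32 (95% interval -1.34 to 0.28; edgeR quasi-likelihood, Benjamini-Hochberg adjusted p = 0.9998). Leaving out single livers moved it between -0.75 without WT replicate 2 and -0.30 without Het replicate 2. Gstm3 had 41.1, 21.1 and 48.0 CPM in WT mice and 33.6, 22.9 and 40.7 in Het mice. Here the lowest WT and the lowest Het liver were both replicate 2, and the spread stood at percentile 99.2. Gstm6 had 40.5, 30.2 and 62.6 CPM in WT mice and 44.7, 46.9 and 57.8 in Het mice, with WT replicate 2 lowest and WT replicate 3 highest (log2 fold change 0.17, SE 0.27). Gstm4 departed from that order, with 40.1, 40.3 and 46.3 CPM in WT mice and 52.2, 28.6 and 41.0 in Het mice. Het replicate 1 was its highest and Het replicate 2 its lowest liver. Gstm7 had 44.0 ± 9.12 CPM in WT mice and 44.3 ± 4.12 in Het mice, and Gstm5, the member of the class with the least spread, 8.49 ± 0.832 CPM in WT mice and 8.21 ± 0.584 in Het mice. In this class, between 0% and 28.8% of windows of 50 bases were shared with other genes, most for Gstm3.

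Pi-class transcripts came almost entirely from Gstp1, a transferase that also binds stress kinases. Gstp1 had 225, 150.2 and 159.6 CPM in WT mice and 155, 219 and 217 in Het mice. In each genotype the livers fell into a high and a low part, and which replicate was high differed between WT and Het (log2 fold change 0.15, SE 0.19). Without WT replicate 1 the log2 fold change was 0.34. Gstp2 had 1.97, 2.36 and 1.95 CPM in WT mice and 3.35, 2.48 and 2.05 in Het mice, the highest log2 fold change of all tested members with all 6 livers (0.32, SE 0.22), at a level of few counts. It was 0.11 without Het replicate 1. The longest reading frames of both genes have 633 bases and differ at 12 of them (98.1% identical). Their first 60 coding bases (GENCODE M21 transcripts, GRCm38), which hold 6 of the 12 differences, are given with the differing bases in capitals.
Gstp1: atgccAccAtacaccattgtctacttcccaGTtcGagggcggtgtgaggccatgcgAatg
Gstp2: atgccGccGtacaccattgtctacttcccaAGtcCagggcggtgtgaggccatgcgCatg
Along the whole transcripts, 62.3% of windows of 50 bases of Gstp1 and 72.6% of Gstp2 occur in other genes, so part of the Gstp2 count may stem from Gstp1 reads or the reverse. With both genes summed, the log2 fold change was 0.15 (SE 0.18).

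Theta-class transferases, which act on small halogenated compounds, showed WT replicate 3 above the other WT livers in all 3 genes. Gstt1 had 159, 137 and 258 CPM in WT mice and 169, 182 and 174 in Het mice (log2 fold change -0.079, SE 0.22). Gstt2 had 45.1, 42.0 and 78.1 CPM in WT mice and 81.9, 47.9 and 50.9 in Het mice, so that 1 Het liver reached the level of WT replicate 3. Gstt3 had 18.1, 15.9 and 38.8 CPM in WT mice and 24.4, 18.5 and 21.1 in Het mice, a range of 2.44-fold. Without WT replicate 3 the log2 fold changes were 0.24 for Gstt1 and 0.33 for Gstt3, against -0.079 and -0.18 with all livers. Of the Gstt3 windows, 26.0% are shared with another gene.

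Among the remaining transferases the spread lay below the middle of like genes for Gstz1 and Mgst1 (percentiles 21.2 and 38.3) and above it for Gsto1, Gstk1 and Mgst3 (68.2, 75.9 and 95.7). Gstz1, which is maleylacetoacetate isomerase of tyrosine breakdown, had 808, 736 and 842 CPM in WT mice and 806, 757 and 754 in Het mice (log2 fold change -0.042, SE 0.11). Gstk1, a mitochondrial and peroxisomal transferase, had 192, 153 and 221 CPM in WT mice and 188, 176 and 171 in Het mice, and its highest and lowest livers were again WT replicates 3 and 2. Gsto1, an omega-class thioltransferase, had 61.1, 62.4 and 70.3 CPM in WT mice and 71.5, 63.5 and 57.3 in Het mice. Mgst1, a membrane-bound transferase of the endoplasmic reticulum and mitochondria, was the most abundant member, with 3467, 3161 and 3191 CPM in WT mice and 3367, 2835 and 2910.1 in Het mice. Its log2 fold change was -0.11, SE 0.12, and Het replicates 2 and 3 were its lowest livers. Mgst3 had 6.26, 4.76 and 10.5 CPM in WT mice and 8.08, 6.76 and 7.17 in Het mice. Mgst2 had 1, 1 and 0 counts in WT and 0 counts in each Het liver, where a count of 0 allows up to 0.140 to 0.150 CPM, so no difference was detectable at this depth. This floor covers counting error only.

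Summed over all 22 transferases, the level was 7045, 6028 and 7572 CPM in WT mice and 6786, 6425 and 6537 in Het mice, between 0.603% and 0.757% of all scaled counts. The Het values lay inside the WT range. The alpha class summed to 952, 708 and 1321 CPM in WT mice and 921, 982 and 989 in Het mice, and the theta class to 222, 195 and 375 CPM in WT mice and 275, 249 and 246 in Het mice. In both, the SD of the WT livers (309 and 97.3 CPM, n = 3) exceeded that of the Het livers (37.3 and 16.2 CPM). It was also larger for the mu class (263 against 100 CPM), the pi class and the zeta, kappa and omega transferases. The same held for the peroxidases and for Nfe2l2 with Keap1. It was smaller for the microsomal class, for glutathione synthesis and reduction and for the NRF2 targets outside glutathione.

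**Figure D4:**
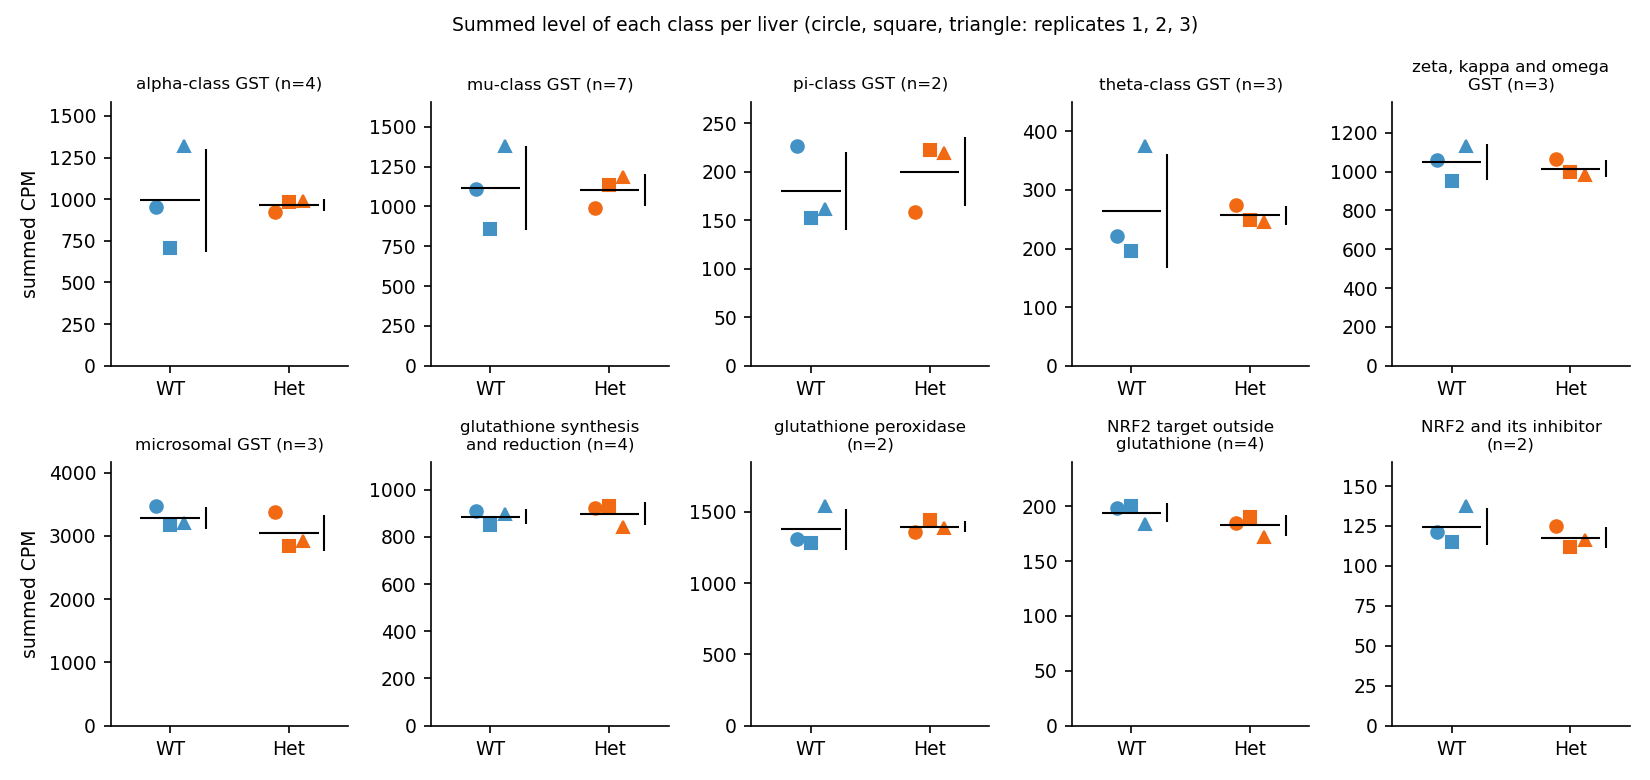
Summed CPM of each class (vertical axes, all from 0) in the 3 WT (blue) and 3 Het (orange) livers, with the mean as a horizontal line and ± 1 SD as a vertical line. WT and Het livers overlap in every panel, and the alpha, mu and theta classes are among those that spread more among WT than among Het livers.

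Transcripts for glutathione synthesis and reduction spread less than most transferases, with percentiles of 50.9 for Gclc, 20.6 for Gclm, 65.8 for Gss and 50.8 for Gsr. Gclc, the catalytic subunit of glutamate-cysteine ligase, had 468, 407 and 451 CPM in WT mice and 441, 517 and 422 in Het mice (log2 fold change 0.058, SE 0.12). Gclm, its modifier subunit, had 314, 309.6 and 305 CPM in WT mice and 340.0, 296 and 300.1 in Het mice (0.012, SE 0.10), a range of 1.15-fold. The 95% interval of Gclm, -0.21 to 0.23, was among the narrow ones. Gss, glutathione synthetase, had 70.9, 79.0 and 85.4 CPM in WT mice and 77.2, 65.4 and 66.9 in Het mice, with 2 Het livers below all WT livers and the third between them (log2 fold change -0.17, SE 0.10). Gsr, which regenerates reduced glutathione, had 58.7, 55.4 and 56.4 CPM in WT mice and 63.6, 53.8 and 53.3 in Het mice, and its means lay close together (56.9 ± 1.70 CPM in WT mice and 56.9 ± 5.81 in Het mice; log2 fold change 0.0017, SE 0.089).

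The peroxidases ran 1.24-fold (Gpx1) and 1.31-fold (Gpx4) from the lowest to the highest liver, with spread at percentiles 51.0 and 64.2. Gpx1, the main cytosolic glutathione peroxidase, had 1126, 1092 and 1354 CPM in WT mice and 1147, 1277 and 1223 in Het mice (log2 fold change 0.030, SE 0.12). WT replicate 3 was its highest liver. Gpx4, which reduces phospholipid hydroperoxides, had 183, 190.4 and 187 CPM in WT mice and 214, 163 and 163 in Het mice (-0.050, SE 0.12). Het replicate 1 was its highest liver and the other Het livers were its lowest. Other genes, chiefly the pseudogene Gpx4-ps2, share 61.7% of its windows of 50 bases, which makes its level uncertain.

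Of the NRF2 targets outside glutathione, Txnrd1 and Srxn1 were steady, and Nqo1 and Hmox1 were not. Txnrd1, cytosolic thioredoxin reductase, had 142, 144 and 130.1 CPM in WT mice and 134, 131 and 126 in Het mice (log2 fold change -0.090, SE 0.083; percentile 12.6). Srxn1, which repairs oxidised peroxiredoxins, had 30.6, 33.3 and 30.4 CPM in WT mice and 30.8, 28.1 and 28.9 in Het mice (-0.10, SE 0.081). In both genes the Het mean was lower, but at least 1 Het liver reached the WT range. Nqo1, a quinone reductase and a standard readout of NRF2 activity, was scarce in these livers. It had 3.18, 2.09 and 4.06 CPM in WT mice and 3.68, 2.81 and 3.22 in Het mice (0.064, SE 0.24), with the highest and lowest values in WT livers. Its spread stood at percentile 86.5.

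Hmox1, heme oxygenase, which macrophages express when they clear red cells, had 22.5, 21.4 and 19.6 CPM in WT mice and 16.8, 28.5 and 14.1 in Het mice. The WT livers lay close together, and the Het livers held both the highest and the lowest values (percentile 97.3). Its log2 fold change was -0.094, SE 0.25, and -0.45 without Het replicate 2. All 12 Kupffer cell and macrophage markers were detected, and they summed to 313, 306 and 179 CPM in WT mice and 249, 343 and 197 in Het mice. Within each genotype the livers stood in the same order for these markers as for Hmox1. Het replicate 2 was the highest and Het replicate 3 the lowest Het liver, and WT replicate 3 was the lowest WT liver. Over all livers, WT replicate 3 was the lowest for the markers and Het replicate 3 for Hmox1. The part of macrophages in the Hmox1 values was not tested.

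Nfe2l2, the gene of NRF2, had 84.4, 74.5 and 94.9 CPM in WT mice and 85.3, 72.8 and 76.2 in Het mice (log2 fold change -0.11, SE 0.11). Leaving out WT replicate 3 moved it to -0.024, and leaving out WT replicate 2 to -0.20. Keap1, its inhibitor, had 36.9, 40.4 and 42.7 CPM in WT mice and 39.5, 39.2 and 39.7 in Het mice (-0.018, SE 0.079). The interval of Keap1, -0.20 to 0.16, was the narrowest of the members. NRF2 is controlled mainly through protein stability, which counts of RNA do not measure.

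Per length, the members spanned a wide range of levels. Scaled to the longest protein-coding transcript, WT means were 2805 CPM per kilobase for Mgst1, 1110.5 for Gpx1, 685 for Gstm1, 639.8 for Gsta3 and 480.2 for Gstz1. On this scale Gstm1 and Gsta3 are neighbours that do not differ beyond the spread of the livers. Gclc lay lower at 129 CPM per kilobase, as did Gclm at 55.3, Txnrd1 at 38.3, Hmox1 at 13.5 and Nqo1 at 2.0. Nqo1 and Gstp2 (2.63 CPM per kilobase) were the lowest of the tested members.

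Of 26 other NRF2 targets, 24 were tested. Values were lower in the Het livers for 19 and higher for 5 (50.3% of all genes), and the median log2 fold change was -0.11, against 0.00088 over all genes. The genotypes did not overlap for 4 of 24, against 8.99% of all genes. The list was chosen with earlier results of these data known, so its shares are not independent support. None of the targets passed the edgeR test (0 of 24), while 5 had an unadjusted p under 0.05 (20.8%, against 4.33% of all genes). The 5 were Me1, which had the smallest p of the list, and Pgd, Tkt, Abcc4 and Ces2g, which were named after their values were seen. Me1, malic enzyme, had 284, 220.4 and 299.7 CPM in WT mice and 194, 185 and 215 in Het mice, with no overlap (log2 fold change -0.44, SE 0.13). Pgd, of the pentose phosphate pathway, had 31.6, 27.2 and 27.2 CPM in WT mice and 27.0, 17.3 and 20.4 in Het mice, where the nearest WT and Het values almost touch (-0.41, SE 0.15). Tkt, transketolase, had 104, 96.9 and 119 CPM in WT mice and 100.3, 81.2 and 87.8 in Het mice, with overlap (-0.25, SE 0.11). Malic enzyme and the pentose phosphate pathway yield NADPH, which glutathione reductase and fatty acid synthesis both use. Ces2g, a carboxylesterase, had 61.3, 54.4 and 56.5 CPM in WT mice and 54.4, 33.5 and 41.5 in Het mice (-0.41, SE 0.16), and Abcc4, a scarce efflux transporter, 1.11, 0.726 and 0.976 CPM in WT mice and 0.526, 0.644 and 0.439 in Het mice (-0.79, SE 0.31). The nearest WT and Het values of Ces2g almost touch, as for Pgd. For Pgd, Tkt, Me1 and Ces2g, Het replicate 2 was the lowest of the 6 livers. The number with an unadjusted p under 0.05 moved with single livers, from 1 without WT replicate 1 or Het replicate 3 to 7 without Het replicate 1. It was 2 without Het replicate 2, and 2 without WT replicate 3, where 10.8% of all genes had such a p. For the other fits with a liver left out, the share over all genes was not counted, so these numbers have no background here. The most abundant targets, the ferritin chains Ftl1 and Fth1, had 2183 ± 176 CPM in WT mice and 2007 ± 260.0 in Het mice, and 974 ± 106 CPM in WT mice and 919 ± 11.4 in Het mice, respectively.

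Among 15 tested partners and regulators of NRF2, 8 had higher and 7 lower values in Het livers (median log2 fold change 0.020), and 0 had an unadjusted p under 0.05. The related factor Nfe2l1, which also had the smallest p of this list, had 124 ± 18.0 CPM in WT mice and 114 ± 6.37 in Het mice, and Mafg, a small MAF protein that pairs with NRF2, 112 ± 7.38 CPM in WT mice and 109 ± 7.54 in Het mice. Of 24 other glutathione enzymes and transporters tested, 13 had higher and 11 lower values, with a median of 0.0061, and again 0 had an unadjusted p under 0.05. The glyoxalases Glo1 and Hagh, which use glutathione to clear methylglyoxal, had 458 ± 19.7 CPM in WT mice and 513 ± 40.3 in Het mice, and 271 ± 53.7 CPM in WT mice and 299.9 ± 9.88 in Het mice, respectively. The smallest p of the list belonged to the gamma-glutamyltransferase relative Ggt6, with 7.42 ± 0.587 CPM in WT mice and 9.31 ± 2.05 in Het mice (log2 fold change 0.33, SE 0.16). In 3 of the 24, Ggt5, Glrx and Eef1g, named after their values were seen, the genotypes did not overlap, with log2 fold changes of 0.32, -0.15 and 0.080; the share over all genes was 8.99%.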

How the data were processed

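Poly(A) RNA of 6 mouse livers, flash frozen and extracted with Trizol, was made into Illumina TruSeq libraries, per the labels' protocols. TopHat2 2.0.11, HTSeq 0.6.1, DESeq and mm9 are named without their role, per the submitters' processing notes. The counting strand and the annotation release are not given in the sources used here. For each liver, raw whole-number counts were deposited for 37991 Ensembl gene IDs. Symbols came from a reference table keyed by the same IDs (32919 matched). Promoters (RefSeq) and transcripts (GENCODE M21) are of GRCm38, another build than the counts, and served only for sequence and length.

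Counts were fitted in R 4.3.3 with edgeR 4.0.16 (filterByExpr, TMM, robust quasi-likelihood, genotype as sole factor), which tested 12631 genes. SE and 95% intervals derive from the F statistic. No list was tested as a set. DESeq2 1.42.0 and limma-voom (limma 3.58.1) were alternatives, with others in the closing section. The steps were tested on simulated data. The labels do not state that replicate numbers pair livers, so no block was used. Members and lists were chosen with earlier results of these data known. All 34 members are named; the rule for other lists takes the 2 most abundant genes and the one with the smallest p. Outside it, Pgd, Tkt, Abcc4, Ces2g, Ggt5, Glrx and Eef1g were named after their values were seen.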

Additional observations from a re-analysis of the deposited data

How the results depend on the processing

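No member passed the adjusted threshold under any of the 15 alternatives run, and 8 of 32 members kept the sign of their log2 fold change in every one. Over all genes, edgeR called 0 with TMM, 1 with no filter on low counts and 0 to 17 with a library left out (17 without WT replicate 3, 10 without Het replicate 1), and the DESeq2 test called 13. The number of members higher in Het livers was 4 to 22 with a library left out (49.1% to 51.0% of all genes). It was 7 with the acute-phase score as a covariate (51.7% of all genes). With fewer livers, 1 to 8 of 32 members had genotypes that did not overlap, while 14.2% to 29.0% of all genes did not (8 members and 29.0% without WT replicate 3). With each library left out in turn, the log2 fold change (Het over WT) ran from -0.65 to 0.78 for Gsta2, -0.24 to 0.20 for Gsta3, -0.18 to 0.39 for Gsta4, -0.14 to 0.19 for Gstm1, -0.46 to 0.059 for Gstm3 and -0.28 to 0.14 for Gstm4. It ran from -0.13 to 0.0062 for Gstm5, -0.049 to 0.50 for Gstm6, -0.14 to 0.15 for Gstm7, -0.25 to 0.24 for Gstt1, -0.16 to 0.47 for Gstt2 and -0.41 to 0.33 for Gstt3. It ran from -0.095 to 0.00052 for Gstz1, -0.21 to 0.047 for Gstk1, -0.10 to 0.064 for Gsto1, -0.19 to 0.41 for Mgst3, -0.034 to 0.12 for Gclc and -0.054 to 0.049 for Gclm. It ran from -0.086 to 0.047 for Gsr, -0.028 to 0.13 for Gpx1, -0.19 to 0.017 for Gpx4, -0.16 to 0.30 for Nqo1, -0.45 to 0.10 for Hmox1 and -0.077 to 0.031 for Keap1. Of the members whose sign held, it ran from -0.75 to -0.30 for Gstm2, 0.039 to 0.34 for Gstp1, 0.11 to 0.47 for Gstp2, -0.19 to -0.061 for Mgst1, -0.25 to -0.10 for Gss, -0.13 to -0.064 for Txnrd1, -0.14 to -0.057 for Srxn1 and -0.20 to -0.024 for Nfe2l2. With the covariate, signs turned to -0.19 for Gsta4, -0.20 for Gstm1, -0.10 for Gstm6, -0.15 for Gstm7, -0.15 for Mgst3, -0.068 for Gpx1, 0.021 for Gpx4 and -0.076 for Nqo1. For Gsr, whose log2 fold change was 0.0017, the sign turned to -0.00030 with a filter at a CPM above 1, -0.0014 with library sizes without the 20 most abundant genes, and -0.0027 with limma-voom, which gave 0.22 for Gsta2. The causes of these changes were not tested. With the replicate block, 0 genes passed, Gsr had -0.0025 and Gsta2 0.061, and Gstm2 reached its smallest p of any fit, without passing (log2 fold change -0.54; edgeR, Benjamini-Hochberg adjusted p = 0.225, and 0.9998 without the block). Same-numbered livers deviated with correlations of -0.025, -0.078 and 0.22, and WT replicates 1 and 2 correlated best with another number, so the numbers are not taken to pair livers. The spread within a genotype was examined with DESeq2 size factors, other library sizes and each library left out, chosen after seeing the data: 22 to 25 of the 32 members exceeded the median SD at their abundance, against 24, and 9 to 13 of the 20 transferases exceeded percentile 90, against 13. The depth limits scarce members: a count of 0 allows up to 0.136 to 0.151 CPM.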

Other observations

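Genes of cysteine and methionine metabolism did not differ between genotypes past the threshold (0 of 18 tested, and 0 with an unadjusted p under 0.05). Of these, 7 had higher and 11 lower values in Het livers. Mat1a, the liver methionine adenosyltransferase, had 2805, 2789 and 2678 CPM in WT mice and 2329, 2686 and 2454 in Het mice, and Cdo1, cysteine dioxygenase, 1238, 1178 and 1374 CPM in WT mice and 1250.2, 1403 and 1366 in Het mice. Csad, which leads from cysteine to taurine, had 135, 163 and 179 CPM in WT mice and 149, 246 and 292 in Het mice (log2 fold change 0.53, SE 0.25). Its Het replicates 2 and 3 were the highest livers and Het replicate 1 lay inside the WT range.

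Among 18 genes of thioredoxin, peroxiredoxins, superoxide dismutases and catalase, 9 had higher and 9 lower values in Het livers, and 0 had an unadjusted p under 0.05. Cat, catalase, had 3298, 3022 and 3712 CPM in WT mice and 3377, 3391 and 3491 in Het mice, and Sod1, the cytosolic superoxide dismutase, 581, 545 and 695 CPM in WT mice and 641, 627 and 607 in Het mice. WT replicate 2 was the lowest and WT replicate 3 the highest liver for both, as for most transferases. Txnrd2, the mitochondrial thioredoxin reductase, had 22.1, 24.1 and 27.9 CPM in WT mice and 25.4, 29.6 and 28.6 in Het mice (log2 fold change 0.17, SE 0.11).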
